A study of Drosophila melanogaster with 2 samples.

Results

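The genes of TFIID and of the other general RNA polymerase II transcription factors are a set of 37 Drosophila melanogaster genes, out of 13968 protein-coding genes on the 7 chromosome arms. They were taken by gene symbol, and their promoters were scored for binding of the CG14014 product. The set held 17 genes of TFIID and of the TBP-related factors, 13 genes of TFIIA to TFIIH (with TfIIS) and 7 genes of promoter-proximal pausing and early elongation. In the annotation e(y)1 carries the name Taf9 and bip2 the name Taf3, and the other 35 members matched by symbol.

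Binding was mapped by chromatin immunoprecipitation with sequencing (ChIP-seq), with an antibody against green fluorescent protein, in 2 biological replicates of 1 group. The group was whole embryos aged 0 to 24 h of the strain CG14014-GFP, which carries a transgene for the CG14014 product fused to eGFP. The promoter that drives the transgene and the number of embryos per replicate are not known from the labels, and whole embryos mix all cell types and stages of that age range. With 1 group, no conditions were compared, and a possible control named in the labels is not used here.

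A gene begins to be transcribed when TFIID, made of the TATA-binding protein TBP and its associated factors (TAFs), recognises the core promoter. TFIIA and TFIIB then steady TBP on DNA, TFIIF arrives with RNA polymerase II, TFIIE recruits TFIIH, and TFIIH opens the DNA and phosphorylates the polymerase. Soon after the start, NELF and DSIF hold the polymerase in a pause, from which the kinase P-TEFb releases it, and this pause is a well-known step at many genes of the fly embryo.

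The conservative list holds the peaks that both replicates supported. In it, 11 of the 37 members (29.7%) had a peak summit within 500 bp of an annotated transcription start site, against 14.6% of all protein-coding genes. They were Taf2, Taf4 and Taf5 of TFIID, TfIIA-L, TfIIB, and Ssl1, Xpd and CycH of TFIIH, and TH1, Nelf-A and Nelf-E of NELF. In the longer optimal list, 13 members (35.1%) had one, against 21.9% of all genes, and the additions were Trf2 and spt4. In the list of replicate 1 alone the count was 13 members (35.1%), against 18.6% of all genes, and in that of replicate 2 alone it was 9 (24.3%), against 13.2%. Genes are not replicates, the members were chosen with earlier results of these data known, and no test was run on these counts. For only 4 of the 11 (TH1, Taf4, Xpd and CycH) was the member's own start the nearest one to the summit. Counting only the gene of the nearest start, the conservative share was 10.8% of members, against 10.7% of all genes.

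**Figure D1:**
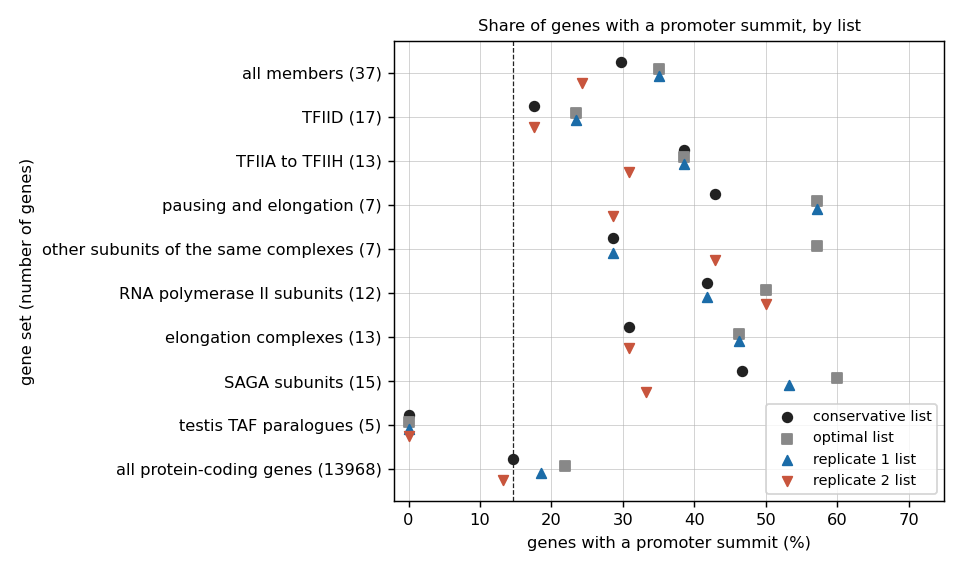
Share of genes with a promoter summit (horizontal axis, percent) for the 37 members, their 3 classes, 5 lists of other transcription genes and all 13968 protein-coding genes, with the number of genes in brackets. Each symbol is 1 of the 4 peak lists and the dashed line marks the 14.6% of all genes in the conservative list; the members lie at 29.7% there and the testis TAF paralogues at 0 in each list.

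The sequences under 5 of these summits are shown because they are the DNA on which the conservative peaks of the members are centred, and they are given in the order of the conservative signal. Ssl1 is not among them because its summit lies in an annotated exon and no run of 100 bp around it is free of exons. Taf5 and Xpd are not printed here. Each is read from the release 6 reference (dm6) 5′ to 3′ on the strand of the named gene, at most 100 bp to each side of the summit. Exon bases are left out. Capitals mark matches, on either strand, to the 8 words searched, which are TTAAAA (an AT-rich word), TAATTA (a homeodomain site), TATAAA (the TATA box), TATCGATA (the Dref site), CGATA (held within the Dref site, and the boundary element core), TCAGT (the initiator core), GAGAG (the GAGA factor site) and CAGCTG (an E-box). The stretch of TH1 is chrX:16391452-16391652 (minus strand), that of Nelf-E chr3L:8600880-8601005 (minus strand), that of TfIIA-L chr3R:27253183-27253372 (plus strand), that of Taf4 chr3L:16113586-16113786 (plus strand) and that of TfIIB chr2L:10430919-10431106 (plus strand).
TH1: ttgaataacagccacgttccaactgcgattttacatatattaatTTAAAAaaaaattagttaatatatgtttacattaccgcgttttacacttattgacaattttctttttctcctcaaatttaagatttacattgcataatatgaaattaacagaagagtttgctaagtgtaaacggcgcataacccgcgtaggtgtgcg
Nelf-E: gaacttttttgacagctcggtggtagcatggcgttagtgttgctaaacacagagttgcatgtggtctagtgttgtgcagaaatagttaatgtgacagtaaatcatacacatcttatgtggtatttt
TfIIA-L: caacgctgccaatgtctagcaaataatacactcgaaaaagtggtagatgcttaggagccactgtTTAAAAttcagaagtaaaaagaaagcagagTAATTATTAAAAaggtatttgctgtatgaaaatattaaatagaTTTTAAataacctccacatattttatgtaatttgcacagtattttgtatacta
Taf4: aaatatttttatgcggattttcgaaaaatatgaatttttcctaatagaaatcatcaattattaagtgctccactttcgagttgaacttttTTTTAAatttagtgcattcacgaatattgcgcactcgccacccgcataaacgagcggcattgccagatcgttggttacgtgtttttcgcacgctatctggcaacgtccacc
TfIIB: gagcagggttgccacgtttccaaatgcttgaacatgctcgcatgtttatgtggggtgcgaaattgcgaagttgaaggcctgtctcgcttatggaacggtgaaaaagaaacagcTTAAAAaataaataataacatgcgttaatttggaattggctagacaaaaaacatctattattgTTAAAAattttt

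Windows of 101 bp centred on the conservative summits of the 11 members were compared, as a description, with those of all 1569 conservative promoter summits. TTAAAA occurred in 6 of the 11 windows (Ssl1, Taf4, Taf5, TfIIA-L, TfIIB and Xpd), against 37.9% of all promoter summit windows. In the TH1 stretch its copy lay outside the 101 bp. CGATA occurred at Nelf-A and Ssl1, against 19.0% of all windows. The copy at Nelf-A was part of TATCGATA, the Dref site, which 3.25% of all windows held. TATAAA occurred at Taf5 (21.5% of all windows) and TAATTA at TfIIA-L (10.1%). None of the 11 windows held TCAGT (15.5% of all windows), GAGAG (7.97%) or CAGCTG (4.84%). A match of letters does not show that a factor binds there. The GC content had a median of 31.7% over the 11 member windows, with 15.8% at Taf5 as the lowest and 49.5% at Nelf-A as the highest, against a median of 32.7% over all 1569 windows.

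The signal of a peak is the authors' own value on an unstated scale, and it serves here only to describe and rank the peaks of 1 list. The 11 peaks had the same signal in the conservative and the optimal list. Ranks count from the strongest peak of a list, and the lists held 3216 (conservative), 5675 (optimal), 4617 (replicate 1) and 2737 (replicate 2) peaks. Read counts were not part of the files, which leaves the depth of both replicates unknown, and the lengths of their lists cannot be set against it. The member signals in the conservative list had a median of 164, against 145 for all 2040 genes with a promoter summit there.

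Among the TFIID genes, 3 of 17 (17.6%) had a promoter summit in the conservative list, close to the 14.6% of all genes. The nearest-start count was 1 of 17 (5.88%), against 10.7% of all genes. Taf5 (FBgn0010356), which encodes the WD-repeat subunit of the TFIID core, had the strongest of the 3 peaks (chr2R:10879732-10879944). Its signal was 375 (rank 288) in the conservative list, 189 (rank 342) in the list of replicate 1 and 196 (rank 232) in that of replicate 2. The summit lay between genes, 154 bp upstream of Taf5 and 147 bp upstream of the divergent gene Pex6, whose start is 301 bp from that of Taf5. Replicates agreed here to within 10 bp in summit position.

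Taf4 (FBgn0010280), the scaffold subunit on which the TFIID core is built, has 3 annotated start sites. Its peak (chr3L:16113629-16113710) had a signal of 164 (rank 1112), with 116 (rank 838) in replicate 1 and 48.0 (rank 2058) in replicate 2. The summit lay 104 bp upstream of an internal Taf4 start and in an intron of the longer Taf4 transcripts, with no other gene's start within 500 bp. Taf4 was thus the only TFIID gene with a conservative promoter summit that it did not share.

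Taf2 (FBgn0011836) encodes the subunit that contacts the initiator element. Its peak (chr3L:9888642-9888971) had a signal of 116 (rank 1801), with 66.3 (rank 2046) in replicate 1 and 56.8 (rank 1678) in replicate 2. The conservative summit lay 124 bp upstream of Taf2, but 45 bp downstream of the divergent gene CalpB, a calpain protease gene, within its 5′ UTR. The summits listed by the replicates were 174 bp apart, 315 bp upstream of Taf2 in replicate 1 and 141 bp upstream in replicate 2, and they belong to separate peaks. The full ranking of replicate 2 also held a weaker peak (signal 14.8) with its summit 341 bp upstream. The optimal list held a further Taf2 peak at chr3L:9888865-9889194 (signal 85.3), with its summit 347 bp upstream.

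Trf2 (FBgn0261793) encodes the TBP-related factor that serves TATA-less promoters. It had 2 promoter peaks in the optimal list, both absent from the conservative list. One (chrX:8409175-8409504, signal 55.4, rank 4937) had its summit 68 bp downstream of the first start, and the other (chrX:8421148-8421477, signal 53.2, rank 5103) 52 bp upstream of the internal start. Replicate 1 gave 55.2 at the internal start and 45.8 at the first. In replicate 2 the best ranked summit at Trf2 had a signal of 6.0, and Trf2 was not in the thresholded list of that replicate. The antisense gene lawc (FBgn0262976), which overlaps the 5′ part of Trf2, showed the same split, with 214 in the replicate 1 list near its start and at best 16.6 in the ranking of replicate 2.

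The other 13 TFIID genes were in none of the 4 thresholded lists. They were Taf1, the largest subunit, Taf6, Taf8, Taf10, Taf10b, Taf11, Taf12, Taf13, e(y)1 and bip2, and Taf7, which binds Taf1. The others were Tbp itself and Trf, the factor that takes the place of TBP at RNA polymerase III genes in flies. In the ranking of the true replicates, which lists weak peaks as well, Taf13 was the highest of these 13 genes at 52.9 (gene rank 3247). Taf6 was the next at 41.3 (4243). Both summits lay nearer to another gene's start, 10 bp from nesd for Taf13 and 93 bp from ash1 for Taf6. A further Taf6 summit, with no other gene's start within 500 bp, had a signal of 21.1. Taf7 had the lowest signal at 20.7 (7849), and bip2 and Tbp had no promoter summit there. Tbp had a summit of signal 34.1 in replicate 1 and none in replicate 2. The pooled ranking, the other ranking drawn from both replicates, held a Tbp summit of signal 37.3. Taf10 and Taf10b, a pair of Taf10 genes that start 45 bp apart head to head, shared a summit of signal 25.6.

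Among the TFIIA to TFIIH genes, 5 of 13 (38.5%) had a conservative promoter summit, against 14.6% of all genes. With only the gene of the nearest start counted, it was 2 of 13 (15.4%), against 10.7% of all genes. The strongest of any member was at Ssl1 (FBgn0037202), which encodes a core subunit of TFIIH. Its peak (chr3L:22878747-22879047) had a signal of 1318 and rank 18 of the conservative list, with 622 (rank 27) in replicate 1 and 696 (rank 13) in replicate 2. The summit lay 192 bp upstream of Ssl1 and 87 bp downstream of the start of Chro, which encodes a chromodomain protein of interbands and the spindle, in the 5′ UTR of Chro. The 2 starts are 105 bp apart and head to head, so this peak lies nearer to Chro than to Ssl1 in the conservative list and in both replicates.

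Xpd (FBgn0261850), the TFIIH helicase gene, had a peak (chr2R:21170698-21171027) of signal 133 (rank 1522), with 61.1 (rank 2318) in replicate 1 and 75.5 (rank 1094) in replicate 2. Its summit lay 138 bp upstream of Xpd and 191 bp upstream of the divergent gene LSm1, which encodes an RNA decay factor. CycH (FBgn0022936) encodes the cyclin of the TFIIH kinase module. Its peak (chr3L:21821699-21822028) had the lowest signal of the 11, 85.1 (rank 2592), and was 133 bp upstream of CycH with no other start within 500 bp. Replicate 1 listed it at 56.7, whereas in replicate 2 it was only in the full ranking, at 29.4.

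TfIIA-L (FBgn0011289), which encodes the precursor of the large TFIIA subunits, had a peak (chr3R:27253194-27253310) of signal 197 (rank 831). Replicate 1 gave 107 (rank 945) and replicate 2 gave 89.8 (rank 839). The summit lay 158 bp upstream of the internal TfIIA-L start, in an intron of the longer transcript, and 90 bp upstream of pll, the kinase gene of the Toll pathway, which lies within TfIIA-L on the other strand. TfIIB (FBgn0004915), the factor that links TBP to the polymerase, had the summit farthest from its start among the 11. Its peak (chr2L:10430841-10431170) had a signal of 131 (rank 1559), with 72.4 (rank 1798) in replicate 1 and 54.3 (rank 1783) in replicate 2. The summit lay 332 bp upstream of TfIIB and 88 bp upstream of the divergent gene Bug22, a ciliary protein gene, and the replicates placed it within 1 bp of each other. The list of replicate 2 also held a much weaker peak (chr2L:10431053-10431356, signal 4.26, rank 2720). Its summit lay 133 bp upstream of TfIIB, nearer to TfIIB than to Bug22, so TfIIB was called by nearest start in that list.

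TfIIA-S (FBgn0013347), the small TFIIA subunit gene, stood apart from the other unlisted members. In the true-replicate ranking it had a peak (chr3R:23890971-23891300) of signal 158, gene rank 929, 76 bp upstream of its own start and of no other. Its global IDR, the irreproducible discovery rate estimated for all peaks at that rank or above, stood at 3.85 on the −log10 scale, past the 0.01 that every conservative peak met. The full rankings gave it 111 in replicate 1 and 56.8 in replicate 2. It was nevertheless in none of the 4 thresholded lists as analysed here. It was 1 of 83 ranked peaks past that threshold which were not in the conservative list, 39 of them at promoters, and the reason was not tested.

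The remaining 7 genes of this class were in no thresholded list and had weak ranked summits. TfIIS, the gene of the transcript cleavage factor, had the highest of them at 50.7, and Cdk7, the TFIIH kinase gene, had 43.1. TfIIEalpha and TfIIEbeta, the TFIIE subunit genes, had 40.8 and 39.2, and TfIIFbeta and TfIIFalpha, the TFIIF subunit genes, had 23.9 and 23.3. The lowest was hay, the gene of the TFIIH translocase XPB, at 22.5. Of the 5 TFIIH members, Ssl1, Xpd and CycH had a conservative promoter summit while hay and Cdk7 had none, against 14.6% of all genes with one. Only Xpd and CycH, 2 of the 5, were called by nearest start, against 10.7% of all genes, because the Ssl1 summit lay nearer to Chro. The 2 TFIIE genes and the 2 TFIIF genes had none in any of the 4 lists. All genes had a share of 13.2% (replicate 2) to 21.9% (optimal) there, and so few genes do not set the complexes apart.

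Among the pausing and elongation genes, 3 of 7 (42.9%) had a conservative promoter summit, against 14.6% of all genes, and they were TH1, Nelf-A and Nelf-E. With only the gene of the nearest start counted, TH1 alone was called, 1 of 7 (14.3%), against 10.7% of all genes. TH1 (FBgn0010416), which encodes the NELF-D subunit, had the second highest signal of all members. Its peak (chrX:16391432-16391653) had a signal of 431 (rank 222), with 211 (rank 281) in replicate 1 and 217 (rank 188) in replicate 2. The summit lay 114 bp upstream of TH1 and 146 bp upstream of the divergent gene mei-41, the fly ATR checkpoint kinase gene. The replicate lists gave the same summit base, 107 bp upstream.

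Nelf-E (FBgn0017430), the NELF subunit gene with an RNA-binding domain, had a peak (chr3L:8600845-8601075) of signal 291 (rank 456). It had 204 (rank 300) in replicate 1 and 85.6 (rank 902) in replicate 2. The summit lay 77 bp upstream of Nelf-E and 50 bp upstream of RpL14, a ribosomal protein gene whose start is 127 bp away. Nelf-A (FBgn0038872), a further NELF subunit gene, had a peak (chr3R:21223440-21223769) of signal 98.9 (rank 2187), which replicate 1 listed at 56.3 and replicate 2 held only in its full ranking, at 38.7. Its summit lay 99 bp upstream of Nelf-A and 21 bp upstream of CG3337. A second conservative peak (chr3R:21224337-21224666, signal 82.7) lay inside Nelf-A, 798 bp downstream of its start and so outside the promoter window.

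The gene spt4 (FBgn0028683), the small subunit of DSIF, had a peak in the optimal list (chr2R:12633360-12633689, signal 59.1, rank 4660), 64 bp upstream of its start and near no other. Replicate 1 listed it at 46.2, and in replicate 2 the ranked signal was 18.4. Spt5, the large DSIF subunit gene, had a summit of signal 22.5 in replicate 1 and none in replicate 2 or in the true-replicate ranking. The pooled ranking held an Spt5 summit of signal 30.5, nearer to the start of Fak. The P-TEFb genes CycT and Cdk9 had ranked signals of 48.1 and 34.2 and were in no thresholded list.

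**Figure D2:**
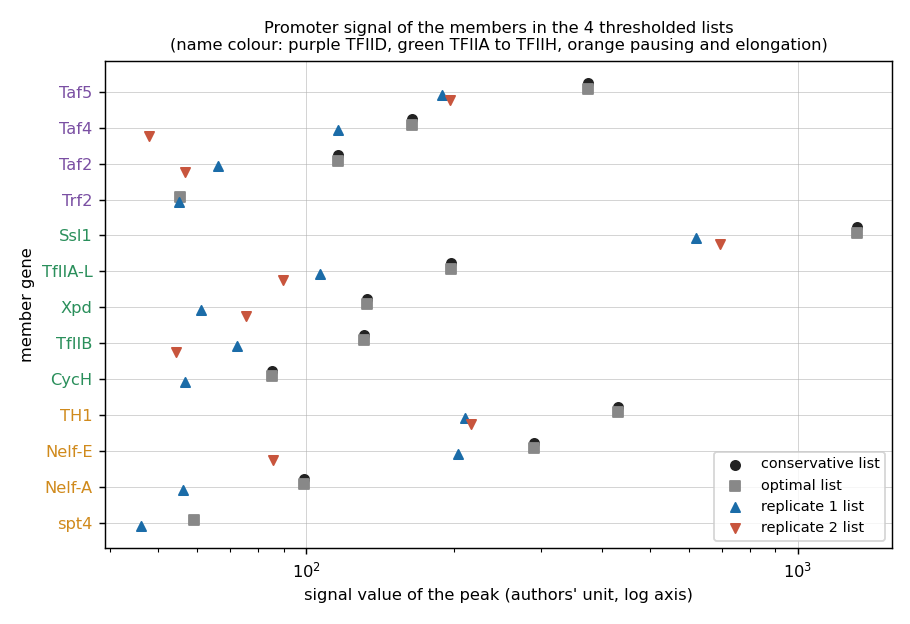
Signal of the strongest promoter peak (horizontal log axis, authors' unit) of the 13 members that had one in any of the 4 thresholded lists, 1 symbol for each list. Ssl1 lies far to the right of the others at 1318 in the conservative list, and CycH, Nelf-A, Trf2 and spt4 have no symbol for the replicate 2 list.

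The 2 replicates were compared over the full rankings, where all 37 members had a promoter summit in replicate 1 (against 70.2% of all genes) and 31 in replicate 2 (83.8%, against 64.1%). Taf6, Taf8, bip2, Tbp, hay and Spt5 were without one in replicate 2. By nearest start alone, 30 members were called in replicate 1 (81.1%, against 65.3%) and 23 in replicate 2 (62.2%, against 57.5%). Over the 31 members with a summit in both, the signals of the replicates had a Spearman correlation of 0.68, against 0.684 over 7070 genes, which is a description across genes and not across embryos. Of the 9 members in both replicate lists, 7 had summits at most 20 bp apart, and the median distance was 13 bp. The exceptions were Taf4 (56 bp) and Taf2 (174 bp), where the lists hold separate peaks. TH1, Taf5 and Ssl1 were the 3 members with the highest signal in replicate 2, and in replicate 1 Nelf-E came between TH1 and Taf5.

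**Figure D3:**
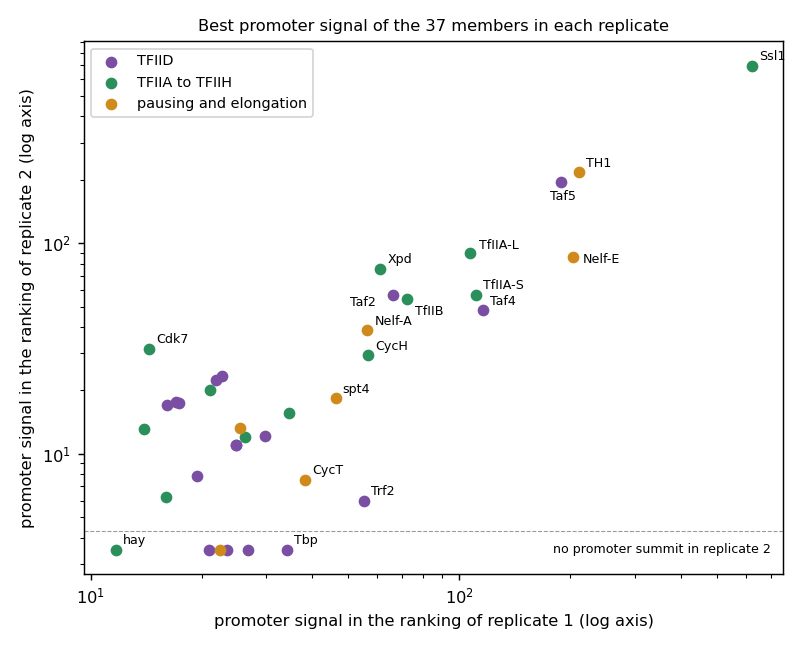
Best promoter signal of each of the 37 members in the full ranking of replicate 1 (horizontal) and of replicate 2 (vertical), both on log axes in the authors' unit and coloured by class. Points below the dashed line had no promoter summit in replicate 2; Ssl1 is at the upper right with 622 and 696, and Trf2 has 55.2 in replicate 1 and 6.0 in replicate 2.

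In the true-replicate ranking, 34 of the 37 members (91.9%) had a promoter summit of any strength, against 69.3% of all genes. By nearest start alone, 28 members (75.7%) were called there, against 64.5% of all genes. The members reached the top 10% of genes by promoter signal in 10 of 37 cases (27.0%), against 9.99% of all genes. They were 3 TFIID genes (Taf5, Taf4 and Taf2), 5 TFIIA to TFIIH genes (Ssl1, TfIIA-L, TfIIA-S, Xpd and TfIIB) and 2 pausing genes (TH1 and Nelf-E). In the ranking of each replicate alone the count was 9 of 37 (24.3%). The top 10% summits of Taf5, Taf2, Ssl1, TfIIA-L, TfIIB and Nelf-E in the true-replicate ranking lay nearer to another gene's start. Among genes with a summit, the median signal was 45.6 for the 34 members and 36.7 for all 9684 genes, and these medians leave out genes with none. Apart from TfIIA-S, the members in no thresholded list had signals from 20.7 to 52.9 in this ranking where they had a summit, with −log10 IDR values up to 1.11 (Taf13).

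Divergent promoters, in which another protein-coding gene starts head to head within 500 bp, were frequent among the members. Of the 37, 22 (59.5%) had one, against 27.3% of all genes. Of these 22, 9 (40.9%) had a conservative summit, against 29.6% of all divergent genes. Of the 15 members without one, Taf4 and CycH had a conservative summit (13.3%), against 8.98% of all such genes. The strongest conservative summit of a member lay within 500 bp of another gene's start as well in 9 of 11 cases (81.8%), against 58.2% of all genes with a conservative promoter summit. Which of the 2 genes of a pair the protein acts on, if either, cannot be told from a summit between them.

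The 11 conservative summits all lay upstream of the member's start, 77 bp (Nelf-E) to 332 bp (TfIIB) away, with a median of 133 bp. For all genes with a conservative promoter summit, 88.2% lay upstream, and the median position was 131 bp upstream. The other 13 of the 22 divergent members had no promoter summit in any thresholded list, among them Taf10 and Taf10b, Taf11 (divergent with und), Taf12 (Ho), Taf13 (nesd), Trf (MED20), Cdk7 (snf), Cdk9 (bonsai) and TfIIFalpha (CG1024).

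**Figure D4:**
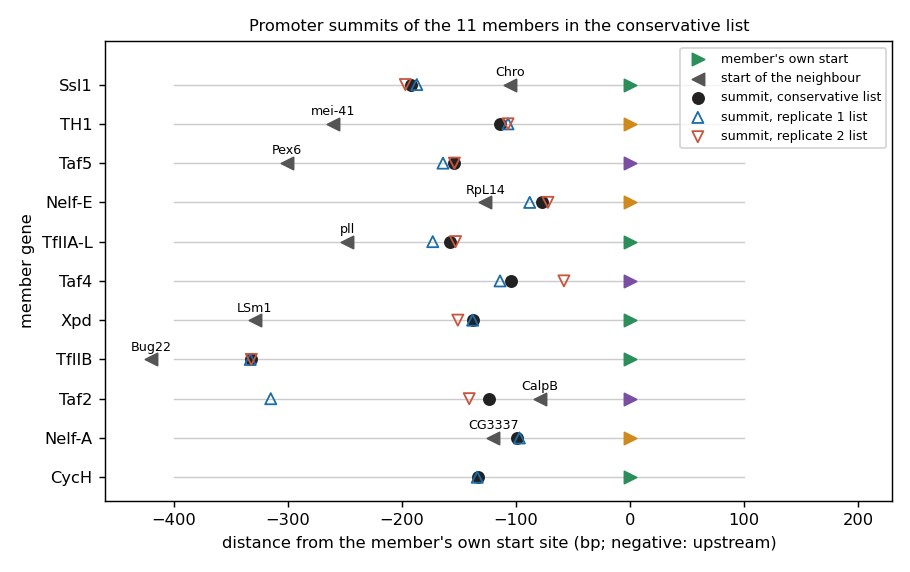
Position of the promoter summits of the 11 members in the conservative list, in bp from the member's own start (0; negative is upstream), with the summits of the replicate lists and the start of the neighbouring gene. All summits lie left of 0, those of Ssl1 and Taf2 lie beyond the neighbour's start, and the summits of Taf2 in the replicate lists, of separate peaks, are 174 bp apart.

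The 26 members with no conservative promoter summit had their nearest conservative summit at a median distance of 6573 bp, from 797 bp (TfIIS) to 112687 bp (Taf1). Of these, 6 (23.1%) lay within 2000 bp of one, against 7.95% of 11905 uncalled protein-coding genes on arms that hold a peak. The head-to-head genes Taf10 (1801 bp) and Taf10b (1756 bp) were both among the 6 through the same summit, so that locus was counted for each gene. With a window of 1000 bp in place of 500 bp, TfIIS was added and the count was 12 members, against 17.1% of all genes.

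Other genes of the transcription machinery, from lists that were likewise chosen with earlier results known, were scored the same way. By nearest start alone, 14 of 52 such genes (26.9%) were called in the conservative list, against 10.7% of all genes. Of the 52, 18 (34.6%) had a conservative promoter summit, against 14.6% of all genes. Among 7 further subunits of the same complexes, mrn (the TFIIH subunit Tfb2, signal 126) and Tfb1 (90.2) had one, and Tfb4 (62.9) and NELF-B had one in the optimal list but not in the conservative list. With NELF-B, all 4 NELF genes were in the optimal list, against 21.9% of all genes. NELF-B was not in the list of replicate 1, nor Nelf-A in that of replicate 2. Only 1 of the 3 NELF members, TH1, had its own start nearest to the summit in the optimal list. Of 12 RNA polymerase II subunit genes 5 had one, led by Polr2H (249), Polr2B (237), Polr2J (205) and Polr2F (182), while Polr2A, the largest subunit gene, had none in any of the 4 lists. Of 13 genes of elongation complexes 4 had one, namely dre4 (169) of the histone chaperone FACT, the histone chaperone gene Spt6 (143), the kinase gene Cdk12 (143) and lilli (81.0) of the super elongation complex. Of 15 genes of SAGA, the coactivator that shares TAFs with TFIID, 7 had one, led by the acetyltransferase gene Gcn5 (336), wda (176), e(y)2 (127) and Ada3 (126). The summits of Polr2H, Polr2J, lilli and Gcn5 lay nearer to the start of another gene (CG11247, CG15141, NTPase and ver, in that order). None of the 5 testis TAF paralogues (can, nht, mia, sa and Taf12L, also called rye), which act in the male germ line, had a promoter summit in any of the 4 lists. The share of all genes was 13.2% (replicate 2) to 21.9% (optimal), and 5 genes are too few to tell 0 from it.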

How the data were processed

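Peak lists on dm6 were analysed, as the authors deposited them. Per the labels' protocols, chromatin was sonicated to fragments of 200 to 800 bp. The sources used here name neither aligner nor peak caller. The signal per peak and the −log10 of the global IDR are the authors' deposited values. A thresholded list and a full ranking came from each replicate alone, and 2 of each from both replicates. The conservative list was the main set. All its peaks passed an IDR of 0.01 in 1 series ranking, called the true-replicate ranking here, as all optimal peaks did in the other, called the pooled ranking. No read counts were given, so depth and its precision are unknown.

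Start sites came from Ensembl release 115 (BDGP6), with transposable elements left out, and no peak lay beyond an arm end. A gene was called where a summit lay within 500 bp of any of its start sites. The members and lists were chosen with earlier results of these data known. The rule for named genes took all members in a thresholded list, the top and bottom 2 of the others by class, and at most 4 called genes of each other list. The remaining members, Polr2A and the testis genes were named after their values were seen. The assignment was tested on simulated data. Alternatives were the list, the threshold, the window and the assignment. Python 3.11.15, numpy 2.4.6, pandas 2.3.3 and matplotlib 3.10.9 were used.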

Additional observations from a re-analysis of the deposited data

How the results depend on the processing

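The counts depended most on how a peak was given to a gene. With only the gene of the nearest start, members called were 4 in place of 11 (10.8%, against 10.7% of all genes), TFIID genes 1 in place of 3, TFIIA to TFIIH genes 2 in place of 5, and pausing and elongation genes 1 in place of 3. With the peak interval required to cover the start, members called were 6 (Taf2, Xpd, CycH, TH1, Nelf-E and Nelf-A), TFIID genes 1 and TFIIA to TFIIH genes 2, and the share of all genes was 7.29% in place of 14.6%. With a global IDR of 0.001 that share was 9.66%, and 10 members were called. Under the other lists, thresholds and windows tried, the member count ranged from 9 (replicate 2 alone) to 13. Of 131 alternative values, 117 were within 1.5 times of their main value. These include the testis TAF paralogues, at 0 under each setting, and settings chosen after seeing the data. Chosen after seeing the data, a minimum signal of 10 left the counts of members as they were, and the true-replicate ranking at an IDR of 0.01 called 12, with TfIIA-S added, against 14.9% of all genes. Calls at CycH, Nelf-A, spt4 and Trf2 were not in the list of replicate 2. No paired analysis was possible because there is 1 group and the counts come from no test.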
